A study of Mus musculus with 12 samples.

Results

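The RANK receptor and costimulatory signalling genes are a set of 10 genes chosen by symbol for their place in osteoclast signalling: Tnfrsf11a, Traf6, Oscar, Tyrobp, Fcer1g, Trem2, Syk, Plcg2, Btk and Sh3pxd2b. They are 10 of the 21887 protein-coding genes in the gene table, and all 10 were found in it. A peak was assigned to a gene when it shared at least 1 bp with the gene's mm10 extent plus 10 kb on each side. The peaks come from chromatin immunoprecipitation and sequencing (ChIP-seq) of the transcription factor MYC and its dimer partner MAX in Raw264.7 cells, a transformed mouse macrophage line that can be turned into osteoclasts. Cells received RANKL at 50 ng/ml together with the BET bromodomain inhibitor I-BET at 500 nM, RANKL alone, I-BET alone, or no treatment, and treated cells were kept for 4 h. Each antibody has 1 peak list per treatment, all from the same line, so a difference between treatments has no replicate check and no p-value is given. The labels name a bone marrow source, and peak lists do not measure expression, so the cell type was not checked against markers here.

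Osteoclasts, the cells that resorb bone, form when the cytokine RANKL binds its receptor RANK on myeloid precursors and RANK recruits the adaptor TRAF6, which leads to NF-kB and MAP kinases. A parallel costimulatory signal comes from immunoglobulin-like receptors such as OSCAR and TREM2. These pair with the adaptors FcR gamma (Fcer1g) and DAP12 (Tyrobp), whose ITAM motifs recruit the kinase SYK. SYK, the kinase BTK and phospholipase C gamma 2 (Plcg2) then raise calcium and activate NFATc1. MAX binds E-box DNA (CACGTG and variants) as a dimer with MYC, with MXD, MNT or MGA proteins, or with itself.

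MAX peaks were listed at every one of the 10 genes with RANKL alone and with I-BET alone, at 6 in untreated cells and at 4 with both compounds. The share of all protein-coding genes with a MAX peak in the same window was 30.0% with RANKL and I-BET, 42.3% with RANKL, 65.0% with I-BET and 37.4% in untreated cells. The number of MAX peaks in the 10 windows was 7 with RANKL and I-BET, 19 with RANKL, 61 with I-BET and 10 in untreated cells. Per megabase of window this is 11, 29.8, 95.7 and 15.7 peaks in the same order of treatments, beside 5.99, 9.97, 30.5 and 8.19 over the windows of all protein-coding genes. The median extent was 32272 bp for the 10 genes and 17169 bp for all protein-coding genes, and a longer gene has a larger window to be hit.

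The treatment lists differ in length, with 6307 MAX peaks for RANKL and I-BET, 10889 for RANKL, 36785 for I-BET and 8839 for untreated cells. When only the 6307 top-scored peaks of each list were kept, 4 of the 10 genes had a MAX peak with RANKL and I-BET, 8 with RANKL, 4 with I-BET and 2 in untreated cells. The shares of all protein-coding genes under this restriction were 30.0%, 29.8%, 33.6% and 30.0% in the same order. With equal numbers the count for I-BET equalled that of the combination, and the count for RANKL was above those of the other 3 treatments. In the RANKL list Tnfrsf11a (rank 6121) and Oscar (rank 6206) fell just inside the cut. Fcer1g and Btk counted there only through peaks at or near the starts of Apoa2 and Timm8a1. Oscar counted through its peak over the Ndufa3 start. The part of list length in the differences between treatments was not tested. Read depth is unknown from these lists.

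**Figure D1:**
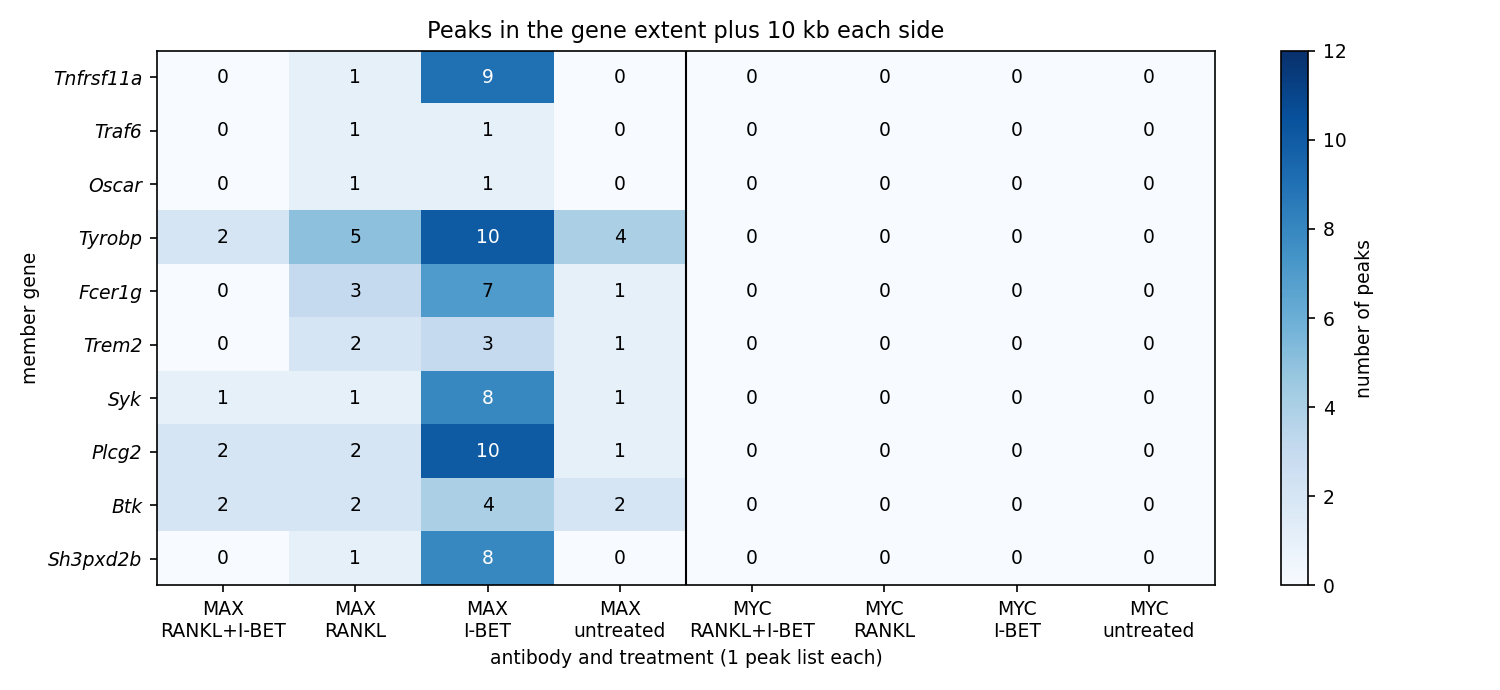
Number of peaks in the gene extent plus 10 kb on each side, for the 10 genes (rows) in the 8 peak lists (columns), with darker blue for more peaks. MAX peaks with I-BET reach 10 at Tyrobp and Plcg2, all genes have at least 1 with RANKL, and the MYC columns are 0 throughout.

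Tnfrsf11a, which encodes RANK itself, lies on chromosome 1 (105780673 to 105849444, mm10). It had 0 MAX peaks with RANKL and I-BET, 1 with RANKL, 9 with I-BET and 0 in untreated cells. The RANKL peak was 318 bp wide, ranked 6121 of 10889 by the authors' score and lay inside the gene, centred 6390.5 bp after the start. The I-BET list held a 410 bp peak at the same place. At the start of Tnfrsf11a itself the I-BET list alone had a peak, which was 1853 bp wide and ranked 9468 of 36785.

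Traf6, the adaptor that RANK recruits, lies on chromosome 2 (101678420 to 101701668). Its window held a single region, listed with RANKL and with I-BET and absent from the lists of the combination and of untreated cells. That region covers the start of Traf6. The peak was 332 bp wide with RANKL (101678267 to 101678598, rank 4979 of 10889) and 564 bp wide with I-BET (rank 6402 of 36785).

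Among the costimulatory receptors, Oscar (chromosome 7, 3609813 to 3616157) showed the same pattern as Traf6, with 1 region in the RANKL and I-BET lists. The Oscar peak was 448 bp wide with RANKL (rank 6206 of 10889) and 921 bp wide with I-BET. It begins 821 bp beyond the gene with RANKL and covers the start of the neighbouring gene Ndufa3, a subunit of respiratory complex I, so it cannot be assigned to Oscar alone.

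Trem2, a receptor that signals through DAP12, lies on chromosome 17 (48346401 to 48352276). Its MAX peaks numbered 0 with RANKL and I-BET, 2 with RANKL, 3 with I-BET and 1 in untreated cells. The untreated peak was 322 bp wide and covered the start, at rank 8112 of 8839. With RANKL no listed peak covered the start, and a 727 bp peak lay inside the gene, centred 1339 bp after it, at rank 9952 of 10889. These peaks of the RANKL and untreated lists do not touch each other, and 1 I-BET peak of 2297 bp spans both places. A further RANKL peak of 431 bp lay 3482 bp past the gene and was also in the I-BET list, at 810 bp.

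Tyrobp, the DAP12 adaptor, lies on chromosome 7 (30413782 to 30417582) and had MAX peaks in all treatments, 2 with RANKL and I-BET, 5 with RANKL, 10 with I-BET and 4 in untreated cells. With I-BET 3 peaks overlapped Tyrobp itself, 833, 223 and 273 bp wide, and in the other treatments no peak did. A region just outside the lower end of the gene, listed in all 4 treatments, was 576 bp wide with RANKL and I-BET, 860 bp with RANKL, 1106 bp with I-BET and 546 bp without treatment. In the RANKL, I-BET and combination lists this peak had the best rank of any peak at the 10 genes, at 1126 of 6307 with RANKL and I-BET, 1242 of 10889 with RANKL and 991 of 36785 with I-BET. It ranked 4721 of 8839 in untreated cells. With RANKL it ends 413 bp before the annotated extent of Tyrobp. Most other Tyrobp peaks lay at the starts of the neighbours Hcst, which encodes the adaptor DAP10, and Nfkbid, a nuclear IkB protein.

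Fcer1g, the FcR gamma chain used by OSCAR, lies on chromosome 1 (171229572 to 171234349). It had 0 MAX peaks with RANKL and I-BET, 3 with RANKL, 7 with I-BET and 1 in untreated cells. The untreated peak (660 bp, rank 8332 of 8839) lay 6630 bp from the gene and within 1 kb of the start of Apoa2, and it was 690 bp wide with RANKL. With RANKL a 922 bp peak covered the start of Fcer1g (rank 7522 of 10889), and with I-BET a 1193 bp peak did so (rank 3265 of 36785). Neither the combination nor the untreated list had a peak at this start.

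**Figure D2:**
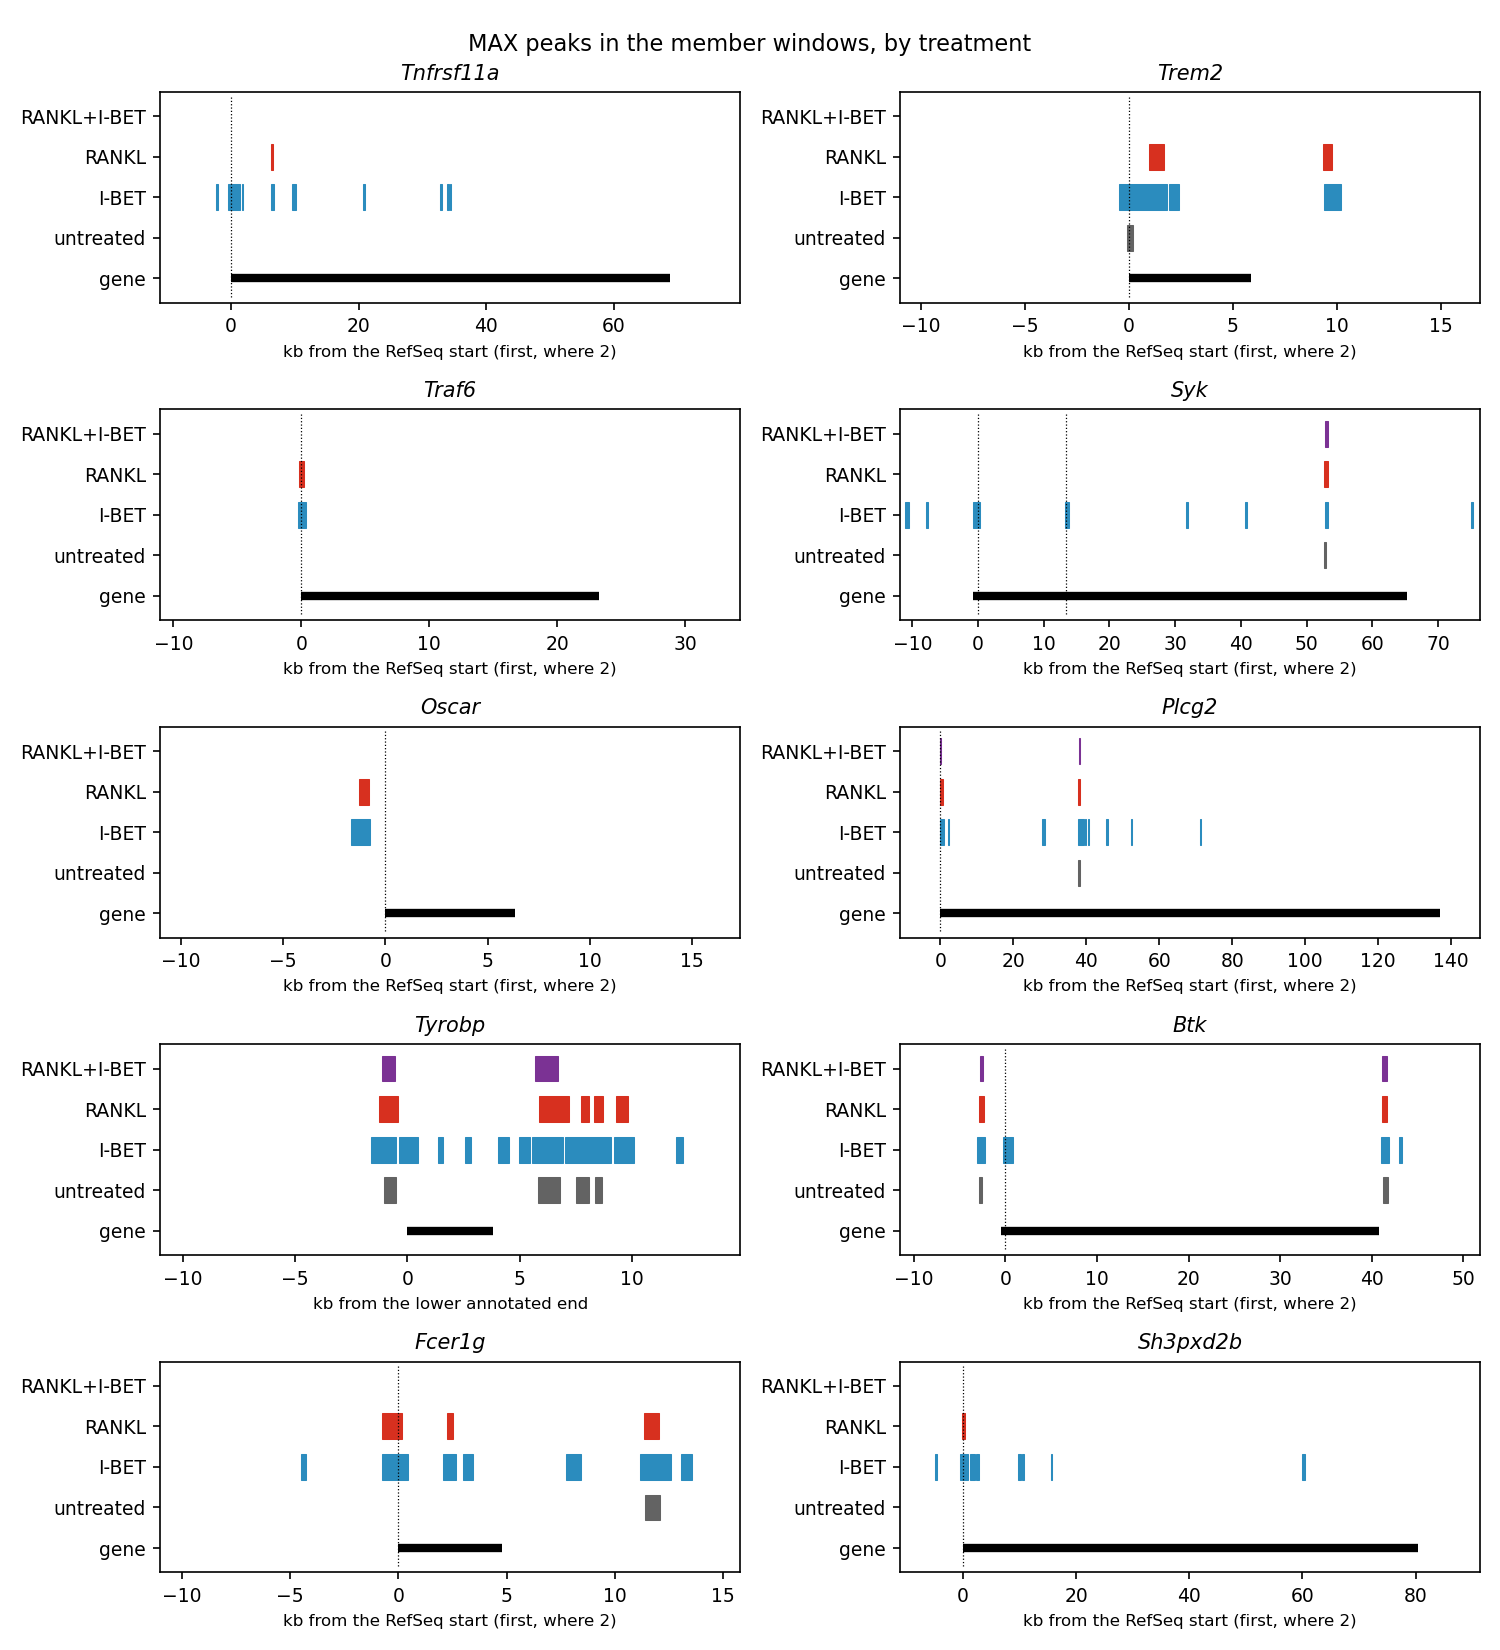
MAX peaks in the windows of the 10 genes, plotted as coloured bars against the distance in kb from the RefSeq start in the direction of transcription (for Tyrobp, which has no start in the table, from its lower annotated end). Each panel has 1 row per treatment with RANKL+I-BET at the top and untreated lowest, the black bar is the gene and dotted lines are starts. Peaks at the starts of Traf6, Fcer1g and Sh3pxd2b appear in the RANKL and I-BET rows, and those of Tnfrsf11a, Syk and Btk in the I-BET row alone.

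Syk, the kinase that binds phosphorylated ITAMs, lies on chromosome 13 (52582610 to 52648792). A single region inside the gene was in all 4 MAX lists, and its RANKL peak was centred 39549 bp after the downstream of the annotated starts. It was 435 bp wide with RANKL and I-BET (rank 3309 of 6307), 551 bp with RANKL (rank 3298 of 10889), 498 bp with I-BET (rank 20422 of 36785) and 297 bp in untreated cells (rank 8312 of 8839). At the pair of annotated Syk starts peaks were listed with I-BET only, 1062 and 508 bp wide.

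Btk, a TEC family kinase, lies on chromosome X (134542334 to 134583628). It had 2 MAX peaks with RANKL and I-BET, 2 with RANKL, 4 with I-BET and 2 in untreated cells. The regions shared by all 4 lists cover the starts of its neighbours Timm8a1, which encodes a mitochondrial import protein, and Rpl36a, a ribosomal protein gene. The Timm8a1 peak was 559 bp wide with RANKL and I-BET, 607 bp with RANKL, 887 bp with I-BET and 571 bp without treatment. A peak at the start of Btk was listed with I-BET alone (1120 bp, rank 14894 of 36785). In a choice made after the data were seen, peaks within 1 kb of another gene's start but not of the gene's own start were left out. Btk then had a MAX peak with I-BET only.

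Plcg2, which encodes phospholipase C gamma 2, lies on chromosome 8 (117498275 to 117635142) and had 2 MAX peaks with RANKL and I-BET, 2 with RANKL, 10 with I-BET and 1 in untreated cells. A peak over its start was 409 bp wide with RANKL and I-BET (117498110 to 117498518, rank 4772 of 6307), 718 bp with RANKL (117498145 to 117498862, rank 3336 of 10889) and 1116 bp with I-BET (117498028 to 117499143, rank 4690 of 36785). The untreated list had none there. A region inside the gene, where the RANKL peak was centred 38082 bp after the start, was in all 4 lists, 363 bp wide with RANKL and I-BET, 593 bp with RANKL, 733 bp with I-BET and 411 bp without treatment. Plcg2 was the 1 gene of the 10 with a peak at its own start in the combination list.

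Sh3pxd2b encodes TKS4, a scaffold protein of podosomes, the actin structures by which osteoclasts attach, and lies on chromosome 11 (32347773 to 32428189). It had 0 MAX peaks with RANKL and I-BET, 1 with RANKL, 8 with I-BET and 0 in untreated cells. The RANKL peak (437 bp) covered the start and stood low in its list, at rank 10075 of 10889. With I-BET the peak over the start was 1356 bp wide and ranked 6942 of 36785.

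RefSeq starts were available for 9 of the 10 genes, all but Tyrobp, and a peak was counted within 1 kb of a start. Such a peak was listed at 1 of 9 genes with RANKL and I-BET (Plcg2) and at 6 with RANKL (Traf6, Oscar, Fcer1g, Trem2, Plcg2 and Sh3pxd2b). It was listed at all 9 with I-BET and at 1 in untreated cells (Trem2). Over the 17492 protein-coding genes with a start the shares were 19.5%, 29.2%, 51.6% and 25.1% in the same order. Of the 6 RANKL peaks, 4 covered the start base itself, and those of Oscar and Trem2 lay within 1 kb of it. The gene table gives extents only, so exons and introns were not told apart.

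The bases before 5 of these starts are shown. MAX coverage differs by treatment in 4 of them, as it does in the windows not shown. The nearest peak of Oscar lies beyond the bases shown. Each run holds the 250 bases that precede the start, 5′ to 3′ in the direction of transcription, from RefSeq (GRCm38.p6, the same assembly as mm10). Plcg2 is chr8:117498025-117498274 (plus strand), Traf6 chr2:101678170-101678419 (plus), Fcer1g chr1:171234350-171234599 (minus), Trem2 chr17:48346151-48346400 (plus) and Oscar chr7:3616158-3616407 (minus). Capitals mark every match to the general E-box pattern CANNTG, which reads the same on both strands.

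Plcg2: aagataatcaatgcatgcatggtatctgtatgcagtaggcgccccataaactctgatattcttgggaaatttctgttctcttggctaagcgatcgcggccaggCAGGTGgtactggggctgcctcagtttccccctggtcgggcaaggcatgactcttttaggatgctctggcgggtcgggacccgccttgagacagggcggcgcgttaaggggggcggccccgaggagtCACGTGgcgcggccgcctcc

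Traf6: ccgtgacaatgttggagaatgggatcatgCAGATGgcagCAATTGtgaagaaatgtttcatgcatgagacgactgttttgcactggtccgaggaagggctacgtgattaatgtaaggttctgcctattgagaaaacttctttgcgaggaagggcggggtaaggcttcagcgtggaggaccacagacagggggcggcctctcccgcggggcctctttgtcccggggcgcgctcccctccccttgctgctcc

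Fcer1g: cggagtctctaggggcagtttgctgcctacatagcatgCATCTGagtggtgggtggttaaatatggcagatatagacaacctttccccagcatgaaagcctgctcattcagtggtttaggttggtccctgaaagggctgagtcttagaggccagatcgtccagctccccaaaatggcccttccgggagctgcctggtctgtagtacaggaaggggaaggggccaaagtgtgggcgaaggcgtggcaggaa

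Trem2: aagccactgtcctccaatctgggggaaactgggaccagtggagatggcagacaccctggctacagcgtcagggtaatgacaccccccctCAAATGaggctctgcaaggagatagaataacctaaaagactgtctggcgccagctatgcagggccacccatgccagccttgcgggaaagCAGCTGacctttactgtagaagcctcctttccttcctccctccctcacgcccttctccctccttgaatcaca

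Oscar: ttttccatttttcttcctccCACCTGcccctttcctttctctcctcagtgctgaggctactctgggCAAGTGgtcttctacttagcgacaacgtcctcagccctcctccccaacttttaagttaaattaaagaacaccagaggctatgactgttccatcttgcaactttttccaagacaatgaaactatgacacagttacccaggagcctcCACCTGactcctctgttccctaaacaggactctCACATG

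Of the 10 upstream windows read for the 9 genes (Syk has 2 starts), 1 held the canonical E-box CACGTG, that of Plcg2. The match begins 20 bases before the start and lies inside the MAX peaks of the combination, RANKL and I-BET lists. Over 32851 RefSeq promoter windows of the same length 6.02% held CACGTG. All 10 windows held CANNTG, which 66.2% of all windows hold and of which CACGTG is a special case. None held CACGCG or its reverse complement CGCGTG, which 7.62% of all windows hold.

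In the Plcg2 window 165 of 250 bases lay in a peak with RANKL and I-BET, 130 with RANKL, 247 with I-BET and 0 in untreated cells. For Traf6 it was 153 bases with RANKL and 228 with I-BET, and both CANNTG matches, 221 and 211 bases before the start, lay in the I-BET peak and outside the RANKL peak. The Fcer1g window was covered over all 250 bases with RANKL and with I-BET. In the Trem2 window 250 bases were covered with I-BET, 109 in untreated cells and 0 with RANKL. No base of the Oscar window lay in a MAX peak in any treatment. The windows of Tnfrsf11a, Sh3pxd2b and Syk (upstream start) were rich in G and C (73.6%, 77.6% and 71.6%), against a median of 52.4% over all windows. Those of Oscar, Btk and Syk (downstream start) had 47.2%, 49.6% and 47.6%.

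The first comparison set RANKL against untreated cells and asked whether the inducing cytokine went with MAX peaks at genes of its own signalling route. All 4 genes that lacked a MAX peak in untreated cells (Tnfrsf11a, Traf6, Oscar and Sh3pxd2b) had 1 with RANKL. Of all protein-coding genes without an untreated peak, 12.7% had 1 with RANKL. All 6 genes with an untreated peak had at least 1 MAX peak with RANKL, and 8.23% of all genes with an untreated peak had none with RANKL. At Trem2 the RANKL peaks were not the untreated one, which covers the start and has no RANKL peak overlapping it. RANKL peaks at the 4 genes ranked between 4979 and 10075 of 10889, none of them in the top 10% of that list. Where exactly 1 RANKL peak met 1 untreated peak, it was wider with RANKL in 8 of 9 cases, by a median factor of 1.33, beside 68.1% and 1.12 over 6975 such pairs in the whole lists. The exception was a peak at Nfkbid in the Tyrobp window, 372 bp wide with RANKL and 553 bp in untreated cells.

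The second comparison set I-BET alone against untreated cells. The same 4 genes gained a MAX peak, where 44.3% of all genes without an untreated peak did, and the other 6 all had at least 1 with I-BET, while 0.257% of all genes with an untreated peak had none. Peaks were wider with I-BET in 8 of 8 matched pairs, by a median factor of 1.90, beside 1.81 over all 7913 pairs. The widest difference was at the start of Trem2, where the I-BET peak measured 2297 bp and the untreated peak 322 bp. Of the 61 I-BET peaks, 40 overlapped a gene of the set, and 31 stood in the top 50% of the list.

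RANKL with I-BET was compared with RANKL alone to see what the inhibitor does during induction. Tnfrsf11a, Traf6, Oscar, Fcer1g, Trem2 and Sh3pxd2b no longer had a listed MAX peak, which is 6 of 10 genes, while 32.2% of all genes with a RANKL peak lost theirs. Tyrobp, Syk, Plcg2 and Btk kept at least 1, and no gene of the set was open to a gain. The kept Btk peaks cover the starts of Timm8a1 and Rpl36a, and neither kept Tyrobp peak overlaps Tyrobp. The 7 matched peaks were all narrower with RANKL and I-BET than with RANKL, by a median factor of 0.750, beside 0.800 over 5416 pairs. At the start of Plcg2 the peak was 409 bp wide with both compounds and 718 bp with RANKL. With only the top 50% of each list, 5 genes had a RANKL peak and 3 of these lost it. The shares of all protein-coding genes with a peak were then 26.9% with RANKL and 17.6% with RANKL and I-BET. With equal numbers of top-scored peaks, 4 of the 8 genes with a RANKL peak lost it and 0 were added. All protein-coding genes then had a peak in 29.8% of cases with RANKL and 30.0% with RANKL and I-BET. The share of all genes that lost a RANKL peak was not computed under either restriction, so these losses have no background beside them.

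Against I-BET alone the combination lacked a MAX peak at the same 6 genes, where 53.8% of all genes with an I-BET peak lost theirs. The 7 matched peaks were again narrower in the combination, by a median factor of 0.521, beside 0.479 over 5739 pairs. Between equal numbers of top-scored peaks, 1 gene was lost and 1 added, and the matching shares of all genes were not computed. The RANKL, I-BET and combination comparisons share lists and are not independent of each other.

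**Figure D3:**
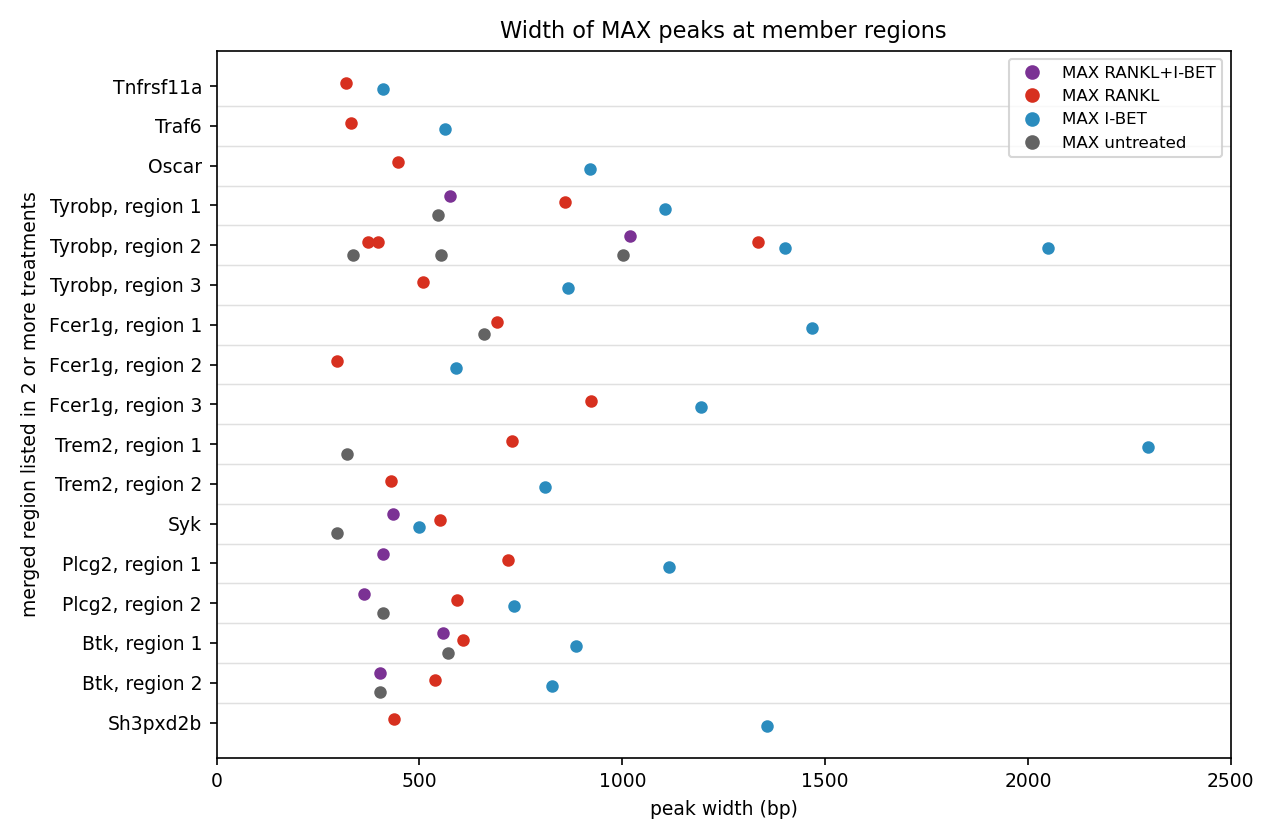
Width in bp of each MAX peak at the 17 merged regions of the 10 genes that were listed in more than 1 treatment, with 1 point per peak and 1 row per region (purple RANKL+I-BET, red RANKL, blue I-BET, grey untreated). Blue points lie right of red ones in most rows, Syk being the exception, and purple points lie left of the red peaks they match.

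MAX peaks of the 4 lists that share at least 1 bp were joined into regions, of which 60 lay in the windows of the 10 genes out of 37124 in all. Every one of the 60 was in the I-BET list, as were 98.7% of all regions. With RANKL 17 of the 60 were listed, with RANKL and I-BET 7, and in untreated cells 8, beside 28.2%, 16.3% and 22.9% of all regions. Regions listed with I-BET alone made up 43 of 60, beside 66.9% of all regions. Regions listed with RANKL and with I-BET but in neither other list made up 8 of 60, beside 6.94% genome-wide. These 8 lay at Tnfrsf11a, Traf6, Oscar, Tyrobp, Fcer1g (2 regions), Trem2 and Sh3pxd2b. Regions in all 4 lists made up 6 of 60, beside 12.9%, and lay at Tyrobp (2), Syk, Plcg2 and Btk (2). The start of Plcg2 was the 1 region of the 60 listed in every treatment with a compound and not in untreated cells, beside 1.65% of all regions.

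The window has an edge at 10 kb. The outermost peaks inside it were I-BET peaks of Syk at 9689 and 9691 bp from the gene, 257 and 553 bp wide. Just outside it were I-BET peaks at 10447 bp from Syk (383 bp wide) and 12525 bp from Fcer1g (1475 bp wide). The outermost I-BET peaks do not decide whether a gene has a peak.

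Lists of other genes of the pathway were assembled from textbook knowledge, with earlier results of these data known. The route from RANK through TRAFs to NF-kB and MAP kinases had a MAX peak at 14 of 36 genes with RANKL and I-BET, 25 with RANKL, 34 with I-BET and 23 in untreated cells. Relative to untreated cells RANKL added 3 of these 36 genes (Traf1, the adaptor gene Traf2 and the deubiquitinase gene Cyld) and removed 1, Relb. Of all protein-coding genes, RANKL added 7.99% and removed 3.07%. Genes with the presence pattern of Tyrobp, Syk, Plcg2 and Btk over all 8 lists numbered 14, among them Csf1r (the M-CSF receptor), Fos, Fosl2 and Map2k7. The pattern of Fcer1g and Trem2 was found at 8 genes, such as Chuk, Map2k3, Map3k7 and Mapk9. The pattern of Tnfrsf11a, Traf6, Oscar and Sh3pxd2b was found at Cyld and Traf1. Across all protein-coding genes the MAX part of these patterns, without regard to MYC, had shares of 26.7%, 7.57% and 5.94%. Traf2 has the MAX part of the Tnfrsf11a pattern and is not counted with it, because of a MYC peak with I-BET. Tnfsf11 (RANKL) and its decoy receptor Tnfrsf11b had no MAX peak in any list.

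In the ITAM and calcium route, MAX peaks were listed at 23 of 45 genes with RANKL and I-BET, 36 with RANKL, 44 with I-BET and 29 in untreated cells. RANKL added 8 of the 45 and removed 1, beside 7.99% and 3.07% of all protein-coding genes. The pattern of Tnfrsf11a, Traf6, Oscar and Sh3pxd2b was shared by 7 genes of this route, among them Bcl10, Clec5a (a DAP12-coupled receptor), Fcgr1 and Fgr (a SRC family kinase). Blnk, Card9, Cbl and Fcgr3 were among 21 with the pattern of Tyrobp, Syk, Plcg2 and Btk, and Fcgr2b, Fyn, Gab2 and Ppp3ca among 6 with that of Fcer1g and Trem2. Malt1 had a MAX peak in every treatment too but is not among the 21, because of a MYC peak with I-BET. Hcst is also in this list. A peak covers its start in every MAX list, and these peaks lie in the Tyrobp window too. Podosome and adhesion genes had a MAX peak in 14 of 30 cases with RANKL and I-BET, 21 with RANKL, 28 with I-BET and 21 in untreated cells. Of these 30, RANKL added 2 and removed 2, beside the same 7.99% and 3.07%. Gsn (gelsolin) was the 1 podosome gene with the pattern of Sh3pxd2b.

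Lists of 10 markers each for other cell types were counted in the same way. Neuronal markers had a MAX peak at 0 of 10 genes with RANKL and I-BET, 1 with RANKL, 3 with I-BET and 1 in untreated cells, the gene in untreated cells being Slc17a7. T cell markers had 3, 4, 6 and 2 of 10 in the same order of treatments, among them Lck in every MAX list and Cd4 in all but the combination. B cell markers had 4, 5, 6 and 5 of 10, among them Blk, Cd79b and Ebf1 in every MAX list. The shares of all protein-coding genes were 30.0%, 42.3%, 65.0% and 37.4% in the same order. With 1 kb around the gene start, the T cell and B cell lists had 0 genes with a MAX peak in every MAX list. The neuronal list then had 1, with I-BET. Without peaks at the start of another gene only, B cell markers had 3 in each MAX list. T cell markers then had 2, 3, 6 and 1, and neuronal markers 0, 0, 3 and 0.

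**Figure D4:**
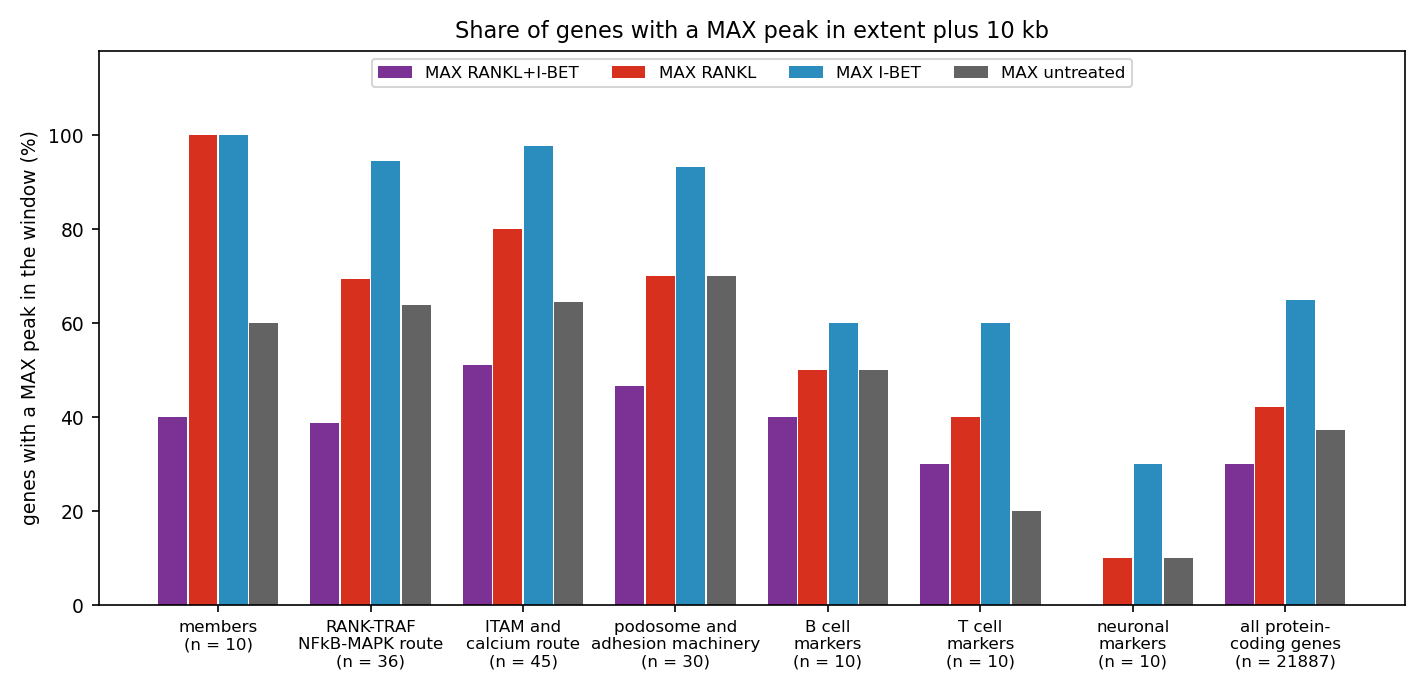
Share of genes, in percent, with a MAX peak in the extent plus 10 kb on each side, for the 10 genes (members), the pathway and marker lists and all protein-coding genes, with 1 bar per treatment (purple RANKL+I-BET, red RANKL, blue I-BET, grey untreated). The 10 genes stand at 100% with RANKL and with I-BET and all protein-coding genes at 42.3% and 65.0%, while the neuronal list has no bar for the combination.

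MYC peaks were absent from all 10 windows in all 4 treatments. The MYC lists are short, and a MYC peak lay in the window of 0.064% of all protein-coding genes with RANKL and I-BET, 2.02% with RANKL, 0.434% with I-BET and 2.05% in untreated cells. With shares this low 0 of 10 does not set the genes apart from others, and absence from such short lists does not show that MYC was missing at a gene. The nearest MYC peak to any of the 10 lay 268.7 kb from Fcer1g (RANKL list), followed by 554.9 kb from Plcg2 and 733.9 kb from Sh3pxd2b. Of the other pathway and marker genes, Traf2 and Malt1 had a MYC peak with I-BET and Cd79a in untreated cells.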

How the data were processed

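MYC and MAX peak lists were analysed for 8 of the 12 samples, 1 list per antibody and treatment. The 4 input libraries were not used here. FastQC, Bowtie2 2.3.4.1, MACS2 2.1.1.20160309 and the builds mm10 and GRCm38 (the same assembly) are named in the submitters' processing notes. How thresholds were set, whether input was subtracted and how duplicates were handled is not given in the sources used here. Peak names show that each row joins peaks from 3 call sets, whose nature is not stated. The deposited score is the authors' own value for a peak and served here only for ordering peaks of the same list.

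Starts were raised by 1, taking the lists to count from 0 as BED does. Genes, extents and promoter sequences came from RefSeq (GRCm38.p6). Overlap means at least 1 bp, and counts were identical with bedtools 2.31.1. All 141 list genes matched the gene table. The genes and lists were chosen with earlier results of these data known, so no pattern is independent support. Named pathway genes are those with a MYC peak or with a pattern equal to that of a gene in the set, up to 4 per list and pattern in alphabetical order. Relb, Tnfsf11, Tnfrsf11b and Hcst were named after their values were seen. Intervals for counting error were not computed because peaks are listed above a threshold and depth is unknown. Tables were computed with pandas 2.3.3 and numpy 2.4.6 under Python 3.11.15 and drawn with matplotlib 3.10.9, and the overlap code was tested on simulated data. Alternatives covered 8 choices of window, overlap, score and width. Another, added after the data were seen, left out peaks within 1 kb of another gene's start but not of the gene's own start. The Oscar peaks over the Ndufa3 start were kept, as they lie within 1 kb of the Oscar start.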

Additional observations from a re-analysis of the deposited data

Results flagged for a closer look

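I-BET went with opposite changes in MAX peaks depending on RANKL, which is what drew attention here. Without RANKL the number of the 10 genes with a MAX peak was higher by 4 with I-BET than in untreated cells, and with RANKL it differed by -6 (RANKL with I-BET minus RANKL). In peaks the differences were 51 (61 with I-BET, 10 in untreated cells) and -12 (7 with RANKL and I-BET, 19 with RANKL). Per gene, I-BET added between 1 and 9 peaks at each of the 10 without RANKL, and on RANKL 7 genes had fewer peaks while Syk, Plcg2 and Btk had equal numbers. The whole lists moved the same way, with 36785 peaks for I-BET and 8839 for untreated cells, and 6307 for the combination and 10889 for RANKL. With 1 list per treatment the difference was not tested, and the part of list length in it was not tested either. Between equal numbers of top-scored peaks, I-BET had 4 genes and untreated cells 2, and RANKL with I-BET 4 and RANKL 8.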

How the results depend on the processing

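No p-value is involved, and a count was taken as changed when it moved by over 1.5 times. The counts of genes with a MYC peak stayed at 0 under every alternative tried. With 1 kb around the gene start, 1 gene had a MAX peak with RANKL and I-BET, 6 with RANKL and 1 in untreated cells, on 1, 6, 10 (I-BET) and 1 peaks, with 8 genes gained by I-BET over untreated cells, 4 regions listed with I-BET alone and 0 in all 4 lists. With 1 kb each side there were 12 peaks with RANKL and 5 in untreated cells. With 50 kb each side there were 98 peaks with I-BET and 19 in untreated cells, 71 regions with I-BET alone, and 2 genes gained with RANKL and 2 with I-BET over untreated cells. In the top 50% of each list by score, 2 genes had a MAX peak with RANKL and I-BET, 5 with RANKL and 1 in untreated cells, on 2, 8, 31 (I-BET) and 1 peaks. The shares of all protein-coding genes were 17.6% with RANKL and I-BET, 26.9% with RANKL, 56.4% with I-BET and 22.8% in untreated cells. There 9 genes were gained by I-BET over untreated cells, 3 lost by the combination against RANKL, and 23 regions were listed with I-BET alone and 0 in all 4 lists. With equal numbers of top-scored peaks, 4 genes had a MAX peak with I-BET and 2 in untreated cells, on 11 peaks with RANKL, 6 with I-BET and 4 in untreated cells. There 2 genes were gained by I-BET over untreated cells, 1 was added and 1 lost by the combination against I-BET, and 1 region was listed with I-BET alone and 2 in all 4 lists. Without peaks at the start of another gene only, there were 4 peaks with RANKL and I-BET, 12 with RANKL and 4 in untreated cells, and 3 regions in all 4 lists. The cause of these shifts was not tested beyond the fewer or more peaks each choice admits. Shares of all protein-coding genes that gained or lost a peak were not computed under these alternatives. Requiring 50% of a peak inside the window, a width of 100 bp or a 5 kb window moved none of the counts over the 10 genes listed above by over 1.5 times. With 5 kb the T cell markers with a MAX peak numbered 2 with RANKL and 1 in untreated cells, and the neuronal markers 0 in both. Of the pathway and marker list counts over all alternatives, 76 moved by over 1.5 times and 140 did not. With 1 kb around the gene start, the RANK to MAP kinase route had 9, 16, 26 and 16 genes (RANKL and I-BET, RANKL, I-BET, untreated). The ITAM and calcium route then had 8, 16, 31 and 11, and podosome genes 8, 13, 19 and 14. Depth is unknown, so a peak missing from a list may lie just under its threshold.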
